A study of Mus musculus with 4 samples.

Results

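The genes described here are 58 homeobox-family developmental regulators outside the Hox clusters. They were chosen by name, without regard to expression, from the 22266 genes of the deposited table: 6 Dlx genes, 12 LIM-homeobox genes (Lhx, Isl and Lmx1), 6 Pax, 5 Nkx and 5 Irx genes, Six2, Six3 and Six4, and 21 others such as Gbx2, Evx1 and En1. All 58 were found in the table, each on 1 row. RNA was read by poly(A) sequencing in mouse embryonic stem cells of the female line PGK12.1, kept in serum with leukemia inhibitory factor. Every library came from the same engineered line, CBX2fl/fl-HaloTag, so the controls carry the floxed Cbx2 alleles and the HaloTag too. The EtOH group (n = 2) received ethanol as the day 0 control and is labelled wildtype. The OHT group (n = 2) received 1.0 µM 4-hydroxytamoxifen for 48 hours (day 2) to delete Cbx2 and is labelled knockout; the recombinase and the deleted exons are not named in the labels. No library here combines the drug with intact Cbx2, so the deletion, the drug and the time in culture cannot be told apart. Nothing in the labels tells whether the 2 libraries of a group stem from separate cultures. The p-values therefore reflect the spread between these samples alone, and that spread may be technical.

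Homeobox genes encode transcription factors that bind DNA through a homeodomain, and they set regional and cell identity in the embryo: forebrain and jaw for Dlx, motor neurons and limbs for LIM genes, eye, kidney and muscle for Pax, ventral neural tube and heart for Nkx. In embryonic stem cells many of them sit in CpG-rich chromatin marked by Polycomb. Polycomb repressive complex 2 methylates lysine 27 of histone H3, and canonical Polycomb repressive complex 1 binds that mark through a CBX subunit such as CBX2 and compacts the locus. The comparison therefore asks whether RNA of such genes differs soon after Cbx2 is deleted. Polycomb binding was not measured in these libraries.

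Values are the authors' TPM, a length-corrected share of the transcripts of a library. Sequencing depth cannot be read from this unit and is unknown here. Cbx2 itself read 2.29 and 2.71 TPM under EtOH against 0.749 and 1.14 TPM under OHT, a gap without overlap. Its log2 fold change on the log2(TPM + 1) scale was -0.85 (SE 0.19, limma adjusted p = 0.265). The 8 stem cell markers checked summed to 9564 and 9480 TPM under EtOH and to 12420 and 11109 TPM under OHT, with none past the threshold. Dppa5a made up most of that gap (4733 and 4612, then 7089 and 5623 TPM). Pou5f1, Nanog, Tdgf1, Esrrb and Zfp42 also lay higher without overlap, Utf1 lay lower (log2 fold change -0.24), and Sox2 overlapped (-0.028). Over all 12029 genes tested, 23.1% lay higher without overlap and 19.4% lower. The OHT libraries differed more from each other than the EtOH libraries did: over the tested homeobox genes the median absolute log2 difference within a pair was 0.26 for OHT and 0.11 for EtOH.

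Most of the 58 genes were barely expressed. None was listed at 0 in all 4 libraries, against 20.3% of the table, but 10 had a mean under 0.1 TPM and 26 lay between 0.1 and 1 TPM. Another 16 lay between 1 and 5 TPM, and only 6 reached 5 TPM, against 41.1% of the table. Those 6 were Gbx2, a mid-hindbrain regulator also known from pluripotent cells (mean 20.7 TPM), Six4 (12.7), Nkx2-9 (11.4), the TALE cofactor gene Meis2 (10.1), Nkx6-2 (5.88) and Pax6 (5.42). Together they held 58.1% of the summed TPM of the 58 genes, and Gbx2 alone 18.2%. The sum over all 58 came to 116 and 115 TPM under EtOH against 104 and 120 TPM under OHT, so the groups overlapped. After median of ratios scaling they did not: the sums were then 119.5 and 113.7, against 112.1 and 107.98 under OHT. That scaling also separated the sums of Six2, Six3 and Six4 (13.8 and 14.7, then 10.4 and 13.6, lower), which overlapped as deposited. So it did for the 21 others (61.4 and 58.4, then 56.3 and 54.3, lower). The Irx sums lay higher without overlap as deposited (6.64 and 5.81, then 6.70 and 7.75) and after scaling (6.82 and 5.76, then 7.22 and 6.95). The Nkx sums lay higher without overlap as deposited (19.1 and 17.3, then 21.5 and 19.3) and overlapped after scaling. The plot of levels by subfamily shows that every subfamily except Dlx had at least 1 gene above 1 TPM.

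**Figure D1:**
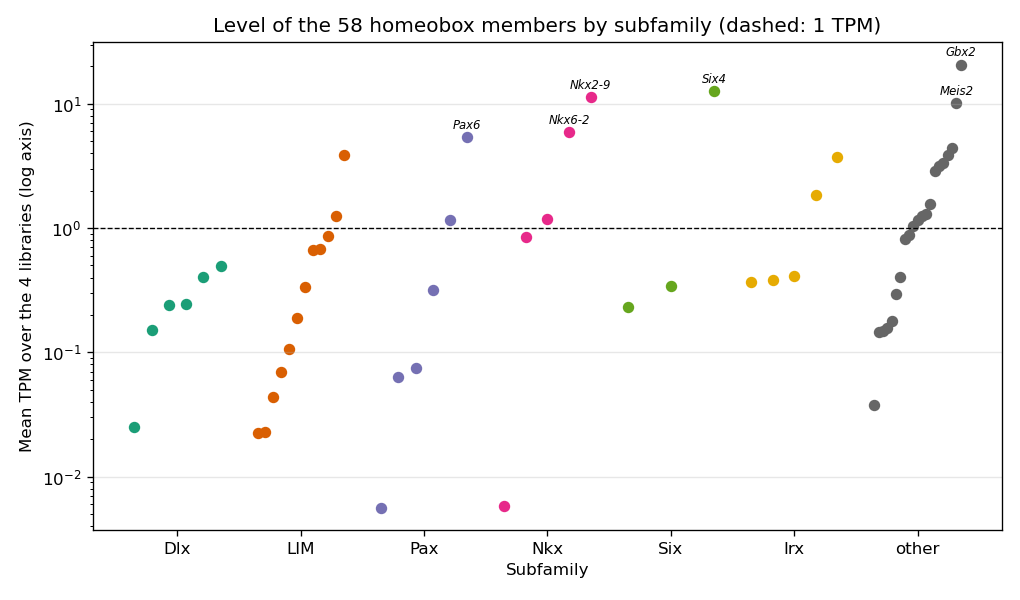
Mean TPM over the 4 libraries (log axis) of each of the 58 genes, grouped by subfamily, with the 1 TPM filter dashed and genes of at least 5 TPM named. All 6 Dlx genes lie under the line, and 22 of the 58 genes lie above it.

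Of the 58 genes, 22 had a mean of at least 1 TPM and entered the test. None of these 22 passed the limma threshold of an adjusted p of 0.05 in either direction. Of the 12029 genes tested 0.0416% passed, 0.00831% higher and 0.0333% lower. At an unadjusted p under 0.05 stood 3 higher in OHT (Tlx1, Gsc, Barx1), beside 6.02% of all tested genes, and 3 lower (Pax6, Evx1, En1), beside 4.46%. Under median of ratios scaling, and likewise under quantile normalization, that split was 1 higher and 4 lower. The shares of all genes under those settings were not counted. Their libraries did not overlap between groups for 7 higher (23.1% of all tested genes) and 6 lower (19.4%). Of the 36 genes under 1 TPM, 5 lay higher without overlap (Dlx1, Dlx3, Isl1, Six2, Lbx1), beside 18.6% of all genes in that range, and 5 lower (Lhx9, Pax7, Pax9, Six3, Emx2), beside 15.9%. The median log2 fold change of the 22 was 0.11, and that of all tested genes was 0.02. The filter uses the mean over all 4 libraries, so Tlx1, Barx1, Pax2 and Nkx2-5, whose EtOH means were under 1 TPM, entered through their OHT values.

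Pax6 and Evx1 stood furthest below their EtOH levels. Pax6, a paired-domain and homeodomain factor of eye, forebrain and pancreas (chromosome 2, 105668900 to 105697364, plus strand), read 7.56 and 7.33 TPM under EtOH against 3.17 and 3.60 TPM under OHT. The groups were well apart, with means of 7.45 ± 0.161 and 3.39 ± 0.303 TPM (SD, n = 2 each) and a ratio of 0.454. The log2 fold change was -0.95 (SE 0.18, 95% interval -1.38 to -0.52, limma adjusted p = 0.211). With each library's trend with transcript length and GC content removed it was -0.97 and passed (limma adjusted p = 0.0466, with 0.583% of genes called). Leaving out 1 library gave Pax6 log2 fold changes of -0.88 without OHT replicate 1 and -1.02 without OHT replicate 2. Without EtOH replicate 1 it was -0.93 and without EtOH replicate 2 -0.97. Each such fit borrows the spread of the complete pair for the single library left in the other group. Those without OHT replicate 1 or 2 called 24.6% and 20.6% of all genes. Whether Pax6 passed in any of these fits is therefore not read as a result. With the replicate number as a block 3 of the 22 genes passed (Pax6, Evx1, Tlx1), beside 3.94% of all genes.

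Evx1, a homeodomain factor of the primitive streak and spinal cord (chromosome 6, 52313498 to 52318378, plus strand), read 6.001 and 5.58 TPM under EtOH against 2.49 and 3.53 TPM under OHT. Both OHT libraries were below both EtOH libraries, and replicate 1 was the lower. The log2 fold change was -0.77 (SE 0.20, limma adjusted p = 0.308), and against the EtOH mean replicate 1 of OHT stood at -0.96 and replicate 2 at -0.58. En1, which patterns the mid-hindbrain and the ventral limb (chromosome 1, 120602418 to 120607992, plus strand), read 3.30 and 4.08 TPM under EtOH against 2.18 and 1.93 TPM under OHT. Its log2 fold change was -0.62 (SE 0.18, limma adjusted p = 0.355). Its paralogue En2 read 3.81 and 3.64 TPM under EtOH against 3.46 and 4.62 TPM under OHT, so the En2 groups overlapped where those of En1 did not.

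Tlx1, Barx1 and Gsc stood furthest above. Tlx1, a homeodomain factor required for the spleen (chromosome 19, 45150680 to 45156943, plus strand), read 0.757 and 0.694 TPM under EtOH against 1.78 and 1.73 TPM under OHT. Replicates lay close together in both groups, with means of 0.725 ± 0.0445 and 1.75 ± 0.0346 TPM (SD, n = 2 each) and a ratio of 2.42. The log2 fold change was 0.68 (SE 0.16, limma adjusted p = 0.270), with 0.69 and 0.66 in the 2 OHT libraries. Barx1, a factor of stomach and tooth (chromosome 13, 48662998 to 48666507, plus strand), read 0.945 and 0.563 TPM under EtOH against 1.86 and 1.30 TPM under OHT. Its log2 fold change was 0.56 (SE 0.20, limma adjusted p = 0.431). Gsc, the organizer gene goosecoid (chromosome 12, 104471209 to 104473330, minus strand), read 2.75 and 2.35 TPM under EtOH against 4.67 and 3.65 TPM under OHT. Its log2 fold change was 0.53 (SE 0.19, limma adjusted p = 0.430).

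Gsc and Evx1 are both genes of the gastrula, and their values lay on opposite sides of the EtOH libraries. At these levels the estimates moved with the libraries kept. Leaving out 1 library at a time gave log2 fold changes of -0.96 to -0.58 for Evx1 and -0.74 to -0.50 for En1. For Tlx1 they were 0.65 to 0.70, for Gsc 0.39 to 0.68 and for Barx1 0.40 to 0.72. The Tlx1, Evx1 and Pax6 spans overlap antisense genes (Tlx1os, Evx1os, Pax6os1) in GENCODE, which were not analysed here. The labels do not say whether strand was kept, so reads of these genes and their antisense partners may not be told apart.

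**Figure D2:**
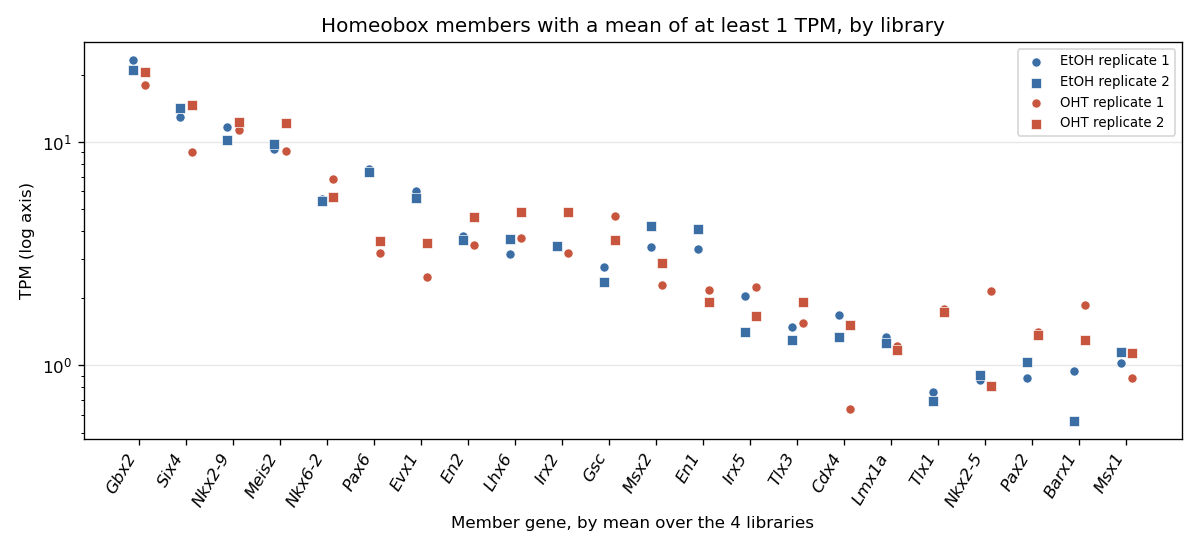
TPM (log axis) of the 22 tested genes, ordered by mean TPM, with each library as a point (blue EtOH, red OHT, circle replicate 1, square replicate 2). Pax6, Evx1, En1 and Msx2 have both red points below both blue ones, and Tlx1, Barx1, Gsc and Pax2 have them above.

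The bases just upstream of 4 of these genes are shown for the sequence context of the values furthest apart. They belong to the pair furthest below and the pair furthest above EtOH, from RefSeq promoter windows on GRCm38.p6, 5′ to 3′, with each CpG dinucleotide in capitals. The window of Pax6 is the one next to its annotated start; bases past either the RefSeq or the GENCODE start were left out.
Pax6, chr2:105668646-105668895, plus strand: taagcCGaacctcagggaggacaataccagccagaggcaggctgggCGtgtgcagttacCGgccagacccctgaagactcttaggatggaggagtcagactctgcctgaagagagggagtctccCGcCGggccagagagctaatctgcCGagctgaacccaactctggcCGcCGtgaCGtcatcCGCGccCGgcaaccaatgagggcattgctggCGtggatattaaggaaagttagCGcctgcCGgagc
Evx1, chr6:52313248-52313497, plus strand: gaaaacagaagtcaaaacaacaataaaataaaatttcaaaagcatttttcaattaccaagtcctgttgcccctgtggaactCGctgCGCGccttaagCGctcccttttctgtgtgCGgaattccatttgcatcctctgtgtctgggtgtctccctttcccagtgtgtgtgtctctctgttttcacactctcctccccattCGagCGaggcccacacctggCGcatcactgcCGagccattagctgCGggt
Tlx1, chr19:45150465-45150679, plus strand: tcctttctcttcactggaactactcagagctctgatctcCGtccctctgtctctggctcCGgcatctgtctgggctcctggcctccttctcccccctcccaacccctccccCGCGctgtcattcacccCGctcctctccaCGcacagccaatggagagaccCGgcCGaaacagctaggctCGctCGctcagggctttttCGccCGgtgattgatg
Barx1, chr13:48662786-48662997, plus strand: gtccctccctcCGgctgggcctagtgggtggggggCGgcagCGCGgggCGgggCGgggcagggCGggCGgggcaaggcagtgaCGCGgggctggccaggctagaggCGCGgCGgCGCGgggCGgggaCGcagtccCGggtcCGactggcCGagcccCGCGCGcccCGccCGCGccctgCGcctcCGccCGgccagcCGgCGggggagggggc
The Pax6 stretch holds 15 CpG in 250 bases, that of Evx1 10 in 250, that of Tlx1 12 in 215 and that of Barx1 31 in 212. The densest of the 4 belonged to Barx1.

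CpG-rich promoters were common among the 58 genes, as among expressed genes at large. RefSeq windows of 300 bases (250 before to 50 after the start) were matched for 46 of the 58 genes, 54 windows in all. They held a median of 18.5 CpG (range 4 to 50), against 7 over all 32841 windows and 20 over the windows of all tested genes. The sequence CG, which reads the same on both strands, was present in all 54 and in 94.6% of all windows. A window with at least 50% GC and an observed over expected CpG ratio of at least 0.6 was found for 68.5% of the homeobox windows, 33.5% of all windows and 66.7% of those of tested genes. Among the homeobox windows the share was 61.5% for tested genes (26 windows of 20 genes) and 75.0% for genes under 1 TPM (28 windows of 26 genes). These are shares of windows, and some genes have several, so they are not shares of genes. No test was made of these shares.

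**Figure D3:**
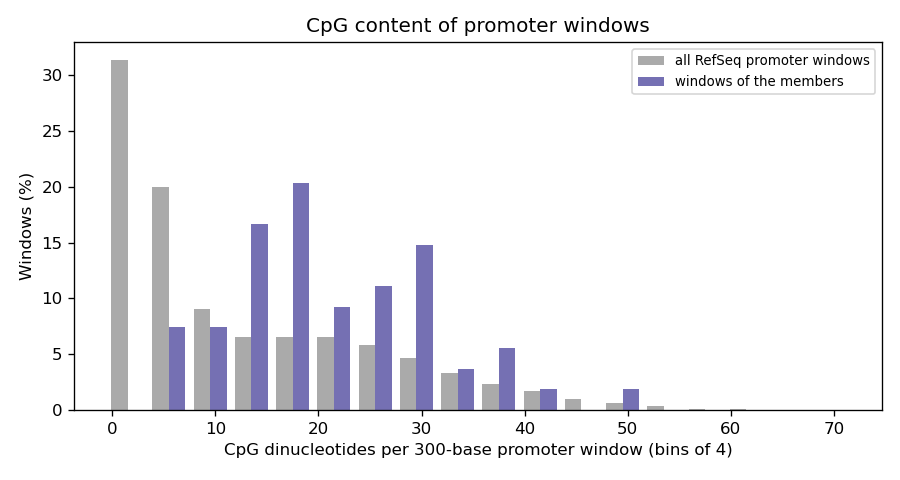
Share of 300-base RefSeq promoter windows (%) by number of CpG dinucleotides in bins of 4, for all 32841 windows (grey) and the 54 windows of the homeobox genes (purple). The homeobox windows have none under 4 CpG and a median of 18.5, against 7 over all windows.

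Pax genes differed among themselves. Their summed TPM came to 9.08 and 8.83 under EtOH against 4.77 and 5.52 under OHT. Most of that sum was Pax6 (7.56 and 7.33, then 3.17 and 3.60 TPM), the highest of the 6, and the lower sum was that of Pax6. Pax2, of kidney and optic nerve, read 0.882 and 1.03 TPM under EtOH against 1.41 and 1.36 TPM under OHT (log2 fold change 0.29, SE 0.16, limma adjusted p = 0.601). Its groups did not overlap, in the direction opposite to Pax6. Pax8, of thyroid and kidney, had overlapping groups (0.494 and 0.236 TPM, then 0.110 and 0.433). The myogenic and neural crest genes Pax3 and Pax7 and the pharyngeal gene Pax9 each had a mean under 0.1 TPM.

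Dlx genes, regulators of forebrain interneurons and of jaw and limb, all stayed under 1 TPM. Summed over the 6, TPM came to 1.16 and 0.943 under EtOH against 1.83 and 2.30 under OHT, and the sums stayed apart after median of ratios scaling (1.19 and 0.936, then 1.97 and 2.07). Dlx3, of skin, tooth and placenta, read 0.359 and 0.213 TPM under EtOH against 0.805 and 0.598 TPM under OHT. Dlx1 read 0.0465 and 0.0175 TPM under EtOH against 0.428 and 0.108 TPM under OHT. For both of these the OHT libraries lay above the EtOH libraries. Dlx5 and Dlx6, which lie 9.24 kb apart on chromosome 6, were high in OHT replicate 2 alone: Dlx5 read 0.193, 0.109, 0.163 and 0.520 TPM and Dlx6 0.138, 0.155, 0.0932 and 0.579 TPM in EtOH replicates 1 and 2 and OHT replicates 1 and 2. Dlx2 overlapped between groups (0.397 and 0.418, then 0.299 and 0.5001 TPM). Without the filter Dlx3 had an unadjusted limma p of 0.0148 (limma adjusted p = 0.392). Adding such low genes brought the higher ones at an unadjusted p under 0.05 to 6 of 58 (beside 5.62% of 17757 genes). The lower ones came to 3 (beside 4.73%).

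LIM-homeobox genes were mostly near the bottom of the range. Lhx6, of cortical interneurons, was the highest of the 12 at 3.16 and 3.67 TPM under EtOH against 3.73 and 4.87 TPM under OHT (log2 fold change 0.26, SE 0.20, limma adjusted p = 0.719). Lmx1a, of the roof plate and dopaminergic neurons, read 1.34 and 1.26 TPM under EtOH against 1.22 and 1.18 TPM under OHT, a small gap with no overlap (log2 fold change -0.07, SE 0.16). Isl1, of motor neurons and heart progenitors, was low but apart, at 0.0770 and 0.117 TPM under EtOH against 0.333 and 0.231 TPM under OHT. Lhx2, of forebrain and eye, and Lhx5, of the hippocampus and spinal cord, overlapped between groups: Lhx2 read 0.673 and 0.762, then 0.486 and 0.772 TPM, and Lhx5 0.535 and 0.626, then 0.511 and 0.985 TPM. Lmx1b, of limb and midbrain, ran from 0.799 and 0.984 TPM under EtOH to 0.5005 and 1.20 TPM under OHT, so OHT replicate 1 was the lowest library and OHT replicate 2 the highest. Lhx1, Lhx4 and Lhx8 had means under 0.1 TPM and overlapping groups, as did Lhx3 and Isl2 at means of 0.107 and 0.333 TPM. Lhx9 was listed at 0 in both OHT libraries after 0.0622 and 0.0293 TPM with EtOH. Summed LIM-homeobox TPM overlapped between groups (7.20 and 8.12, then 7.34 and 9.74).

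Nkx genes held some of the highest levels of the 58 genes. Nkx2-9, a ventral neural tube factor, read 11.7 and 10.2 TPM under EtOH against 11.3 and 12.3 TPM under OHT (log2 fold change 0.10, 95% interval -0.31 to 0.52). Nkx6-2, of oligodendrocytes and interneurons, read 5.58 and 5.46 TPM under EtOH against 6.83 and 5.67 TPM under OHT (log2 fold change 0.15, SE 0.18). The cardiac gene Nkx2-5 was high in 1 OHT library only, with 0.857 and 0.909 TPM under EtOH against 2.15 and 0.810 TPM under OHT. Its log2 difference from the EtOH mean was 0.74 for replicate 1 and -0.057 for replicate 2 (limma estimate 0.34, SE 0.28, adjusted p = 0.736). Leaving out OHT replicate 2 gave a log2 fold change of 0.74. Nkx2-2 likewise ran high in OHT replicate 1 (1.22 TPM) and low in OHT replicate 2 (0.528 TPM), around EtOH values of 0.917 and 0.712 TPM.

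Of the 5 Irx genes and Six2, Six3 and Six4, 3 were tested (Six4, Irx2, Irx5), and the groups of all 3 overlapped. Six4, of muscle and sensory ganglia, read 12.9 and 14.2 TPM under EtOH against 9.02 and 14.6 TPM under OHT. Its log2 fold change was -0.22 (SE 0.24, limma adjusted p = 0.819), with -0.54 and 0.10 in the 2 OHT libraries. Leaving out OHT replicate 2 gave a log2 fold change of -0.54. Six2, of nephron progenitors, read 0.278 and 0.352 TPM under EtOH against 0.363 and 0.370 TPM under OHT. Irx2 read 3.43 TPM in both EtOH libraries and 3.19 and 4.86 TPM with OHT (log2 fold change 0.16, SE 0.22). Irx5 read 2.05 and 1.40 TPM, then 2.24 and 1.67 TPM (0.12, SE 0.21). Irx1, Irx3 and Irx4, which with the former pattern heart, limb and neural tissue, had means between 0.368 and 0.410 TPM and overlapping groups.

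Of the remaining genes, Msx2 came closest to the leading ones. This target of BMP signalling in skull and limb read 3.39 and 4.19 TPM under EtOH against 2.29 and 2.88 TPM under OHT (log2 fold change -0.42, SE 0.19, limma adjusted p = 0.528). Its relative Msx1 overlapped between groups, at 1.02 and 1.15 TPM and then 0.880 and 1.14 TPM. Gbx2 read 23.2 and 21.1 TPM under EtOH against 18.0 and 20.6 TPM under OHT, apart by a narrow margin (log2 fold change -0.19, SE 0.15, limma adjusted p = 0.732). Meis2 read 9.33 and 9.81 TPM under EtOH against 9.12 and 12.1 TPM under OHT (0.12, SE 0.19). Tlx3, of sensory neurons, read 1.49 and 1.30 TPM, then 1.55 and 1.91 TPM (0.19, SE 0.17). Cdx4, a caudal regulator on chromosome X, read 1.67 and 1.33 TPM, then 0.634 and 1.52 TPM, low in OHT replicate 1 alone (log2 fold change -0.30, SE 0.25). Leaving out OHT replicate 2 gave a log2 fold change of -0.61. Meis1, at 0.558 and 1.10, then 1.07 and 0.825 TPM, and Phox2a, of autonomic neurons, at 0.538 and 0.772, then 0.710 and 1.26 TPM, were just under the filter, and both overlapped between groups. The forebrain genes Emx1, Otx1 and Otp and the hindlimb gene Pitx1 had means of 0.295, 0.156, 0.148 and 0.178 TPM and overlapping groups. Emx2, of cortex and kidney, was listed at 0 in both OHT libraries and read 0.0227 and 0.128 TPM under EtOH. Cdx2, the trophoblast and hindgut regulator, stayed at 0.0400 to 0.267 TPM over the 4 libraries.

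**Figure D4:**
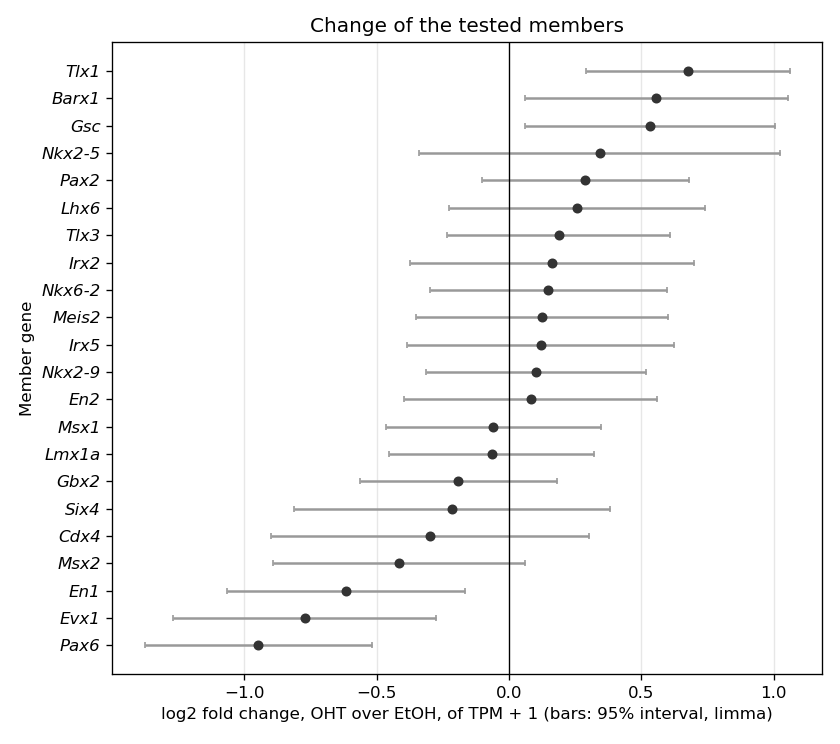
Log2 fold change of TPM + 1, OHT over EtOH, of the 22 tested genes with limma's 95% intervals. The intervals of Pax6, Evx1, En1, Tlx1, Barx1 and Gsc do not reach 0 before adjustment over 12029 genes, and none passed after it.

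The 2 OHT libraries did not give the same picture for every gene. Against the EtOH mean the median log2 difference of the 22 tested genes was -0.056 for replicate 1 and 0.07 for replicate 2, and over all tested genes it was -0.09 and 0.14. OHT replicate 2 read above OHT replicate 1 for 13 of the 22 genes (59.1%), against 76.1% of all tested genes. OHT replicate 2 minus OHT replicate 1 correlated with the log2 length of the transcript over the 22 genes (Pearson r = 0.52, Spearman rho = 0.50). Over 12016 tested genes it did so too (r = 0.56, rho = 0.62). EtOH replicate 2 minus EtOH replicate 1 also correlated with length over those genes, less strongly (r = 0.28, rho = 0.38). These points are genes of the same libraries, not replicates. The longest coding transcripts of the 22 had a median of 2502 bases, those of all tested genes 3015. With the length and GC trend removed, En1 read -0.67, Evx1 -0.86, Tlx1 0.58, Barx1 0.45 and Gsc 0.43 on the log2 scale. The plot of the 2 OHT libraries against each other places Pax6, Tlx1, En1 and Pax2 near the line of equal change and Nkx2-5, Six4 and Cdx4 far from it.

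**Figure D5:**
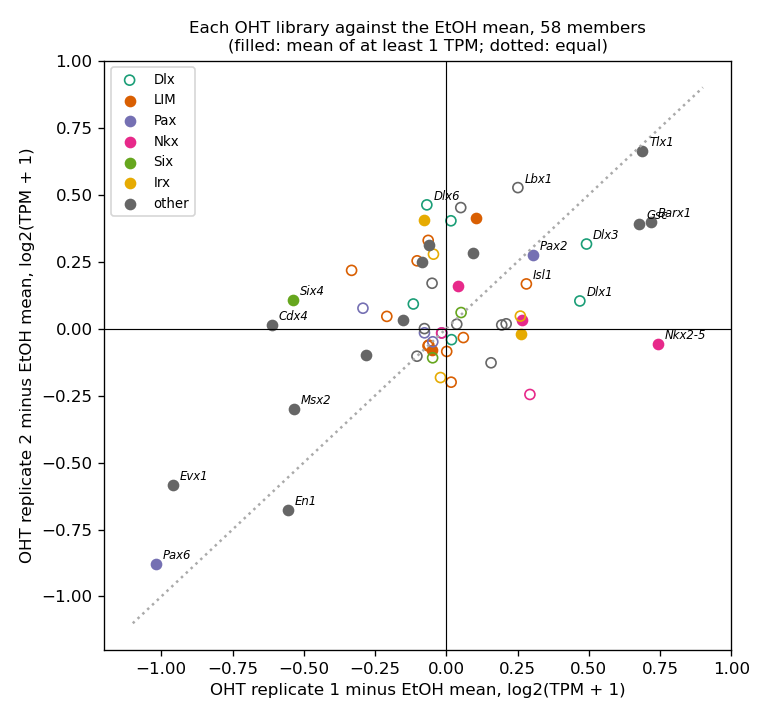
Difference of log2(TPM + 1) from the EtOH mean in OHT replicate 1 (x axis) and OHT replicate 2 (y axis) for all 58 genes, coloured by subfamily, filled where the mean is at least 1 TPM. Pax6 lies at -1.02 and -0.88 and Tlx1 at 0.69 and 0.66, while Nkx2-5 lies at 0.74 and -0.057.

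Some of the 58 genes are neighbours in the genome, within 1000 kb of each other. On chromosome 19, Pax2, Tlx1 and Lbx1 lie within 480 kb, and for all 3 the OHT libraries lay above the EtOH libraries. Lbx1, of limb muscle precursors and dorsal spinal neurons (45232684 to 45235812, minus strand), read 0.329 and 0.101 TPM under EtOH against 0.439 and 0.742 TPM under OHT. This stretch was singled out after its values were seen. It holds 8 other genes of the table, of which 4 lay higher in OHT without overlap, 1 lower and 3 overlapped. Over all genes 23.1% of those tested and 18.6% of those under 1 TPM lay higher without overlap. Lzts2, a leucine zipper gene between Pax2 and Tlx1, read 5.05 and 5.68 TPM under EtOH against 10.5 and 11.7 TPM under OHT (log2 fold change 0.92, SE 0.18, limma adjusted p = 0.220). Elsewhere 8 neighbouring pairs were found. Both genes overlapped between groups in Irx1 and Irx2, Irx2 and Irx4, Irx3 and Irx5, and Dlx5 and Dlx6. In Dlx1 and Dlx2, Dlx3 and Dlx4, and Nkx2-9 and Pax9, 1 gene of the pair was apart and the other overlapped. Six3, 55.0 kb from Six2, lay lower without overlap (0.230 and 0.301, then 0.223 and 0.173 TPM) where Six2 lay higher.

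Genes for partners of these factors showed no call either. LIM-homeodomain proteins act through LDB1, whose gene read 95.7 and 98.1 TPM under EtOH against 90.0 and 96.2 TPM under OHT. Of 10 LIM partners listed, 8 were tested, and none passed in either direction. Of 9 TALE partners (Pbx, Pknox, Meis3, Tgif) all 9 were tested and none passed. Pknox2 read 2.36 and 2.76 TPM, then 3.75 and 4.49 TPM (log2 fold change 0.52, SE 0.19, limma adjusted p = 0.425). It was the only one of them at an unadjusted p under 0.05, beside 6.02% of all tested genes higher at that p. Of 9 further genes of the network of Pax, Eya and Dach genes, among them Eya1, 3 were tested and none passed. The median log2 fold changes of the tested partners were 0.11, 0.04 and 0.08 in that order, beside 0.02 over all genes.

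Other homeobox genes outside the Hox clusters were read beside the 58. Of 63 found in the table, 7 were tested and none passed the limma threshold. At an unadjusted p under 0.05 stood 2 higher, beside 6.02% of all tested genes, and 1 lower, beside 4.46%. Nkx2-4 read 0.748 and 0.965 TPM, then 2.14 and 2.08 TPM (log2 fold change 0.75, SE 0.17, limma adjusted p = 0.265). Rax, of the eye field, read 0.794 and 0.817 TPM, then 1.74 and 1.03 TPM (0.39, SE 0.20). The EtOH means of Nkx2-4 (0.857 TPM) and Rax (0.806 TPM) were under the filter, so both entered the test through their OHT values. Hesx1, of the anterior neural plate and pituitary, read 6.63 and 6.84 TPM, then 3.18 and 5.02 TPM (-0.62, SE 0.23, limma adjusted p = 0.432). These genes and the 58 were not compared by a test.

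Markers of other cell types were checked beside these genes, and their part in the results was not tested. Of 9 neuroectoderm markers, Pax6 itself among them, 5 were tested, and the sum over the 9 was 222 and 220 TPM under EtOH against 183 and 195 TPM under OHT. Most of that sum was Tubb3 (195 and 192, then 160 and 165 TPM), while Nes and Map2 overlapped between groups and the median log2 fold change of the 5 was 0.0034. Neurog2 was listed at 0 in all 4 libraries, and Sox1 read 3.10 and 2.62 TPM under EtOH against 5.28 and 6.77 TPM under OHT, opposite to Pax6. The 7 mesendoderm markers, which include Gsc and Evx1, summed to 11.8 and 11.01 TPM, then 10.4 and 10.6 TPM, and the streak gene T read 0.367 and 0.436 TPM, then 0.303 and 0.219 TPM. The 7 primitive endoderm markers summed to 26.6 and 28.6 TPM, then 28.0 and 39.5 TPM. The 7 trophoblast markers, Cdx2 among them, summed to 54.6 and 53.8 TPM, then 59.6 and 61.7 TPM. Most of that sum was Tfap2c (32.4 and 33.5, then 31.4 and 36.6 TPM), whose groups overlapped, while Krt8 and Ascl2 lay higher without overlap. The 9 fibroblast and feeder markers, mostly Vim, summed to 288 and 281 TPM, then 226 and 251 TPM, and the lower sum was that of Vim. Thy1, S100a4, Twist1, Col1a1 and Col1a2 lay higher in OHT without overlap (5 of 9), Vim and Dcn lower, and none of the 4 tested passed. Over all genes, 23.1% of those tested and 18.6% of those under 1 TPM lay higher without overlap, and 19.4% and 15.9% lower. S100a4, with an EtOH mean of 0.818 TPM, entered the test through its OHT values. Thy1 read 6.41 and 5.43, then 7.64 and 10.9 TPM, and the defining markers Col1a1, Col1a2, Dcn, Col3a1 and Lum stayed at 0 to 0.777 TPM. In bulk samples, fewer cells of a type and less RNA per cell cannot be told apart.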

How the data were processed

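Poly(A) RNA libraries were made with NEBNext kits from 2 EtOH and 2 OHT samples, per the labels' protocols. The deposited TPM values were made by the authors with Trim Galore and Salmon against GRCm38 (mm10), names that come from the submitters' processing notes without versions. Their annotation release is not given in the sources used here. Besides the 4 libraries the table has 2 columns that match no sample used here; they were not used. Values were analysed as log2(TPM + 1), which understates the change of low genes. The 12029 genes whose mean reached 1 TPM were fitted with limma 3.58.1 in R 4.3.3 (mean-variance trend; two-sided; 2 residual and 4.01 prior degrees of freedom), adjusted by Benjamini-Hochberg over all of them at 0.05. The fit was tested on simulated data. An exact permutation test of 2 against 2 cannot go below p = 0.333 and was not run.

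The homeobox genes and the other lists were chosen with earlier results of these data known. Named were all 22 tested genes, those from 0.3 TPM whose groups did not overlap, and up to 4 other homeobox genes by p, of which 1 is not reported here; Dlx, Isl1 and other low genes beyond that were named after their values were seen. Coordinates, lengths and GC content come from GENCODE M21 (GRCm38), which matched 22213 identifiers without version and 11 with version. A blastn 2.17.0 search (95% identity over 50% of a transcript) found near-identical copies for 0 of the 58 genes. GENCODE genes overlap 24 of the 58 on the opposite strand. Alternatives were other pseudocounts, filters, scalings and limma settings, a replicate block, removal of length and GC trends, and leaving out each library.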

Additional observations from a re-analysis of the deposited data

How the results depend on the processing

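No paired analysis was used as the main one, because the labels do not say whether samples with the same replicate number belong together. The correlation over genes of the replicate differences of the groups was 0.29, and its source was not tested. With the replicate block, 3 of the 22 tested homeobox genes passed (Pax6, Tlx1 and Evx1), beside 3.94% of all genes, and Cbx2 passed at its log2 fold change of -0.85 (limma adjusted p = 0.00308). With the length and GC trend removed 1 passed (Pax6), beside 0.583% of all genes, and 4 were higher without overlap. None passed under the other settings that kept all libraries (lowest limma adjusted p from 0.0961 under quantile normalization to 0.329 without a filter). Scaling by median of ratios and normalizing by quantiles each left 1 higher and 4 lower at an unadjusted p under 0.05, with 7 higher under both and 7 and 8 lower without overlap, and the quantile setting turned En2 to -0.024. Without a filter 6 were higher at that p, beside 5.62% of 17757 genes. Then 12 lay higher and 11 lower without overlap, since more genes entered. At a minimum of 5 TPM only 6 genes remained: 0 were higher and 1 lower at that p, 1 higher and 2 lower without overlap, and the median was -0.045. Where no share of all genes stands beside a count here, that share was not counted. Such counts are not read as a result about the homeobox genes. Leaving out 1 library gave a median of -0.056 to 0.13 over the 22 genes and Cbx2 at -0.998 to -0.71. Such fits borrow the spread of the other group for the single library left, so their counts of genes are not given. The direction turned within those fits for Nkx2-5 (-0.057 to 0.74), Six4 (-0.54 to 0.10), Irx2 (-0.079 to 0.40), Irx5 (-0.051 to 0.29), Msx1 (-0.15 to 0.033), Meis2 (-0.062 to 0.31), En2 (-0.084 to 0.25) and Cdx4 (-0.61 to 0.012). All the other tested homeobox genes kept their direction in every alternative run for them, among them Pax6, Evx1, En1, Tlx1, Barx1 and Gsc. The groups of these leading genes did not overlap, so leaving out a library or changing the pseudocount could not turn it. The cause of these shifts was not tested, and with depth unknown the genes under 1 TPM have no counting error attached.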
